A study of Mus musculus with 24 samples.

Results

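The suppressor of cytokine signalling (SOCS) family was examined in splenic B cells of C57BL/6 mice that were labelled deficient in the DNA dioxygenase genes Tet2 and Tet3, and in B cells of control mice. The family comprises 8 genes, Cish and Socs1 to Socs7. All 8 were found by gene symbol among the 23234 genes of each of 2 RNA-seq tables, and none was left out. The cells came fresh from the spleen and were sorted by CD93, which marks transitional B cells that have recently left the bone marrow. The 4 groups used had 3 libraries each: CD93-negative B cells with the Tet2/Tet3-deficient genotype (DKO), CD93-negative control B cells, CD93-positive B cells of the same deficiency (titled Tet KO, also called DKO here) and CD93-positive control B cells. The labels used here do not give the age of the mice, the way in which Tet2 and Tet3 were inactivated, the cell type in which they were lost or whether libraries came from separate animals. P-values therefore measure only the spread between libraries. Values are FPKM, a fragment count scaled to transcript length and to the mapped fragments of the library, so that levels of different genes can be set side by side. FPKM holds no counts, so library depth is unknown.

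SOCS proteins are feedback inhibitors of cytokine receptors. A cytokine bound to its receptor activates JAK kinases, which phosphorylate STAT transcription factors, and the STAT proteins switch on SOCS genes whose products then silence the receptor complex. Each member has a central SH2 domain that binds phosphotyrosine and a carboxy-terminal SOCS box that recruits an Elongin B, Elongin C and Cullin 5 ubiquitin ligase. Cish and Socs1 to Socs3 are the members best known for induction by cytokines. Socs1 and Socs3 can also inhibit JAK kinases directly through a kinase inhibitory region, Socs1 is the main brake on interferon gamma signalling, and Socs3 acts on receptors that use gp130. Socs4 to Socs7 have been linked mainly to receptor tyrosine kinases and adaptor proteins.

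The family was taken whole by name, but it was chosen by a look at these same FPKM values: it was proposed with DKO-to-control differences known, that of Socs1 among the largest. Differences of its members are therefore described and not tested in their own right. As a description, it is stated which members passed an adjusted p of 0.05 in a limma fit over all genes of a population, with Benjamini-Hochberg adjustment. A member that passed is called higher or lower. Each log2 change is the DKO mean minus the control mean of log2(FPKM + 1), a scale that compresses the change of genes with low values, and ± marks an SD with n = 3 unless an SE is named.

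The CD93-positive libraries need 3 facts before their values are read. DKO replicate 3 had a summed FPKM of 309359 over all genes, against 523898 to 597968 in the other 5 libraries, and its values were low for most members. It also had 21908 genes above 0, against 14976 to 19195 in the other 5, which rescaling does not change. The 3 DKO libraries and control replicate 3 had Xist at 19.7 to 59.4 FPKM and Ddx3y at or under 0.0504 FPKM, as in females, whereas control replicates 1 and 2 had the pattern of males, as did all 6 CD93-negative libraries. All 8 red cell markers in the table were above 0 in every CD93-positive library. Their summed level was 12520, 13315 and 2977 FPKM in DKO libraries and 57074, 48673 and 13077 FPKM in control libraries, while in CD93-negative cells it ran from 145 to 196 FPKM in DKO and from 21.7 to 60.6 FPKM in control libraries. The summed level of 7 neutrophil markers was 362 to 1119 FPKM in DKO and 1231 to 1712 FPKM in control CD93-positive libraries, against at most 16.2 FPKM in CD93-negative cells, where the marker Retnlg was at 0 in all 6. The 6 B cell markers, Cd79a and Cd79b among them, were above 0 in every library. In CD93-positive cells they summed to 2751, 2946 and 1403 FPKM in DKO and 3498, 3003 and 3950 FPKM in control libraries, which did not overlap. There 1 of the 6 fell with the authors' scaling and 4 were lower after rescaling. In CD93-negative cells their sums overlapped, at 2960 to 3112 FPKM in DKO and 2713 to 3359 FPKM in control libraries. Cd93 itself was at 28.0 to 50.5 FPKM in DKO and 50.9 to 59.9 FPKM in control CD93-positive libraries, and at 3.32 to 3.85 FPKM in DKO and 3.88 to 4.65 FPKM in control CD93-negative libraries. Tet2 was at 8.15 to 9.94 FPKM in DKO and 6.36 to 8.79 FPKM in control CD93-negative cells, and Tet3 at 14.9 to 15.7 and 14.8 to 20.1 FPKM. In CD93-positive cells Tet2 was at 1.80 to 3.55 FPKM in DKO and 3.10 to 3.47 FPKM in control libraries, and Tet3 at 3.84 to 9.92 and 12.1 to 14.1 FPKM. These gene-wide values also count exons that a deletion may spare, so they check no label. The median log2 change over all genes tested with the authors' scaling was 0.11 for CD93-negative and -0.22 for CD93-positive cells. After each library was rescaled to a common upper quartile it was -0.08 and -0.01, so members are also given after that rescaling where it matters.

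In CD93-negative cells the cytokine-inducible members stood apart from the rest of the family by the fold of their means. Socs1, Socs3 and Socs2 were higher in DKO than in control cells, by 12.1-fold, 7.16-fold and 5.10-fold of the means. Cish was low in both groups and did not pass the filter, with a DKO mean 3.56-fold its control mean. Socs4, Socs5, Socs6 and Socs7 were at 0.943, 0.693, 1.13 and 1.10 of their control means. The groups of Socs6 did not overlap, though its change did not pass.

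Socs1, the inhibitor of interferon and common gamma chain cytokine signalling, had 43.5, 49.6 and 54.9 FPKM in DKO libraries, against 3.90, 3.95 and 4.42 FPKM in control libraries. All 3 DKO libraries lay far above all 3 controls, and neither group had an outlying library. The log2 change was 3.30 (SE 0.13), and 3.10 (SE 0.10) after upper quartile rescaling. Socs3, which restrains interleukin 6 family receptors, had 25.1, 24.0 and 25.9 FPKM in DKO libraries, against 3.62, 3.77 and 3.08 FPKM in control libraries. The DKO values were nearly alike and did not overlap the controls (log2 change 2.54, SE 0.13, and 2.34, SE 0.11, after rescaling). Socs2, which in mice limits growth hormone signalling, had 1.68, 1.43 and 1.54 FPKM in DKO libraries, against 0.318, 0.318 and 0.277 FPKM in control libraries. It entered the fit only through its DKO values, since no control library reached the filter of 1 FPKM, and its log2 change of 0.97 (SE 0.15) depends on the pseudocount, with 2.03 at a pseudocount of 0.1 FPKM. Cish, an early target of STAT5, had 0.472, 0.590 and 1.32 FPKM in DKO libraries, against 0.202, 0.380 and 0.0882 FPKM in control libraries. The groups did not overlap, but only 1 library reached 1 FPKM, so Cish did not pass the filter and has no fitted change.

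Socs4, the most abundant member in control CD93-negative cells, had 16.7, 16.7 and 15.6 FPKM in DKO libraries, against 15.8, 18.9 and 17.3 FPKM in control libraries. These ranges overlapped, with a log2 change of -0.08 (SE 0.13). Socs5, which has been tied to turnover of the EGF receptor, had 4.22, 4.55 and 3.92 FPKM in DKO libraries, against 5.15, 7.31 and 5.85 FPKM in control libraries. Every DKO value was below every control value, and the log2 change of -0.43 (SE 0.15) did not pass with the authors' scaling. It passed after rescaling, at -0.62 (SE 0.09), and under 7 of 16 alternatives in all. Rescaling also took Socs4 past the threshold, at -0.29 (SE 0.07). Socs6, which can bind the receptor kinase Kit, had 5.12 to 5.38 FPKM in DKO and 4.42 to 4.88 FPKM in control libraries, and Socs7 had 6.85 to 7.66 FPKM in DKO and 5.70 to 7.02 FPKM in control libraries. Their log2 changes of 0.15 and 0.12 took the opposite sign after rescaling, at -0.04 and -0.07, so no direction is given for them.

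Markers of some other cells moved with these differences. In CD93-negative cells 11 T cell markers summed to 40.6 to 43.5 FPKM in DKO and 16.5 to 28.1 FPKM in control libraries, and 7 of the 10 that passed the filter were higher. The 9 plasma cell markers summed to 379 to 422 FPKM in DKO and 102 to 140 FPKM in control libraries, and 6 of 8 were higher. The 9 macrophage markers summed to 22.8 to 24.2 FPKM in DKO and 16.9 to 19.4 FPKM in control libraries, and 3 of the 4 that passed the filter were higher under both scalings. In each of these 3 lists 1 of the higher markers had passed the filter through DKO libraries alone. Without it 6 of 9 T cell, 5 of 7 plasma cell and 2 of 3 macrophage markers were higher, beside 17.6% of all genes selected alike. The summed levels of NK cell, neutrophil and dendritic cell markers overlapped between the groups. Of these markers, selected alike, 1 of 9, 0 of 3 and 1 of 5 were higher. Each T cell, plasma cell and macrophage marker was above 0 in at least 1 library. The part of these cells and of red cells in the SOCS values was not tested. In bulk samples, more cells of a type and more RNA per cell cannot be told apart.

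Of the 7 members that passed the filter, 3 were called higher and 0 lower, and over all 10960 genes tested 21.5% were called, 18.7% higher and 2.79% lower. After rescaling 3 members were called higher and 2 lower, where 40.9% of all genes were called, 17.1% higher and 23.8% lower. The DKO and control values did not overlap in 4 members with higher and 1 with lower DKO values among those 7, where 38.9% of all genes tested did not overlap, 31.5% with higher and 7.43% with lower DKO values. Socs2 is in each of these counts of higher members, though it passed the filter through DKO libraries alone. Among members not selected in that way Socs1 and Socs3 were called higher. Of all genes not selected in that way 17.6% were higher and 2.60% lower with the authors' scaling. Because these values chose the family, nothing is read from the counts.

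**Figure D1:**
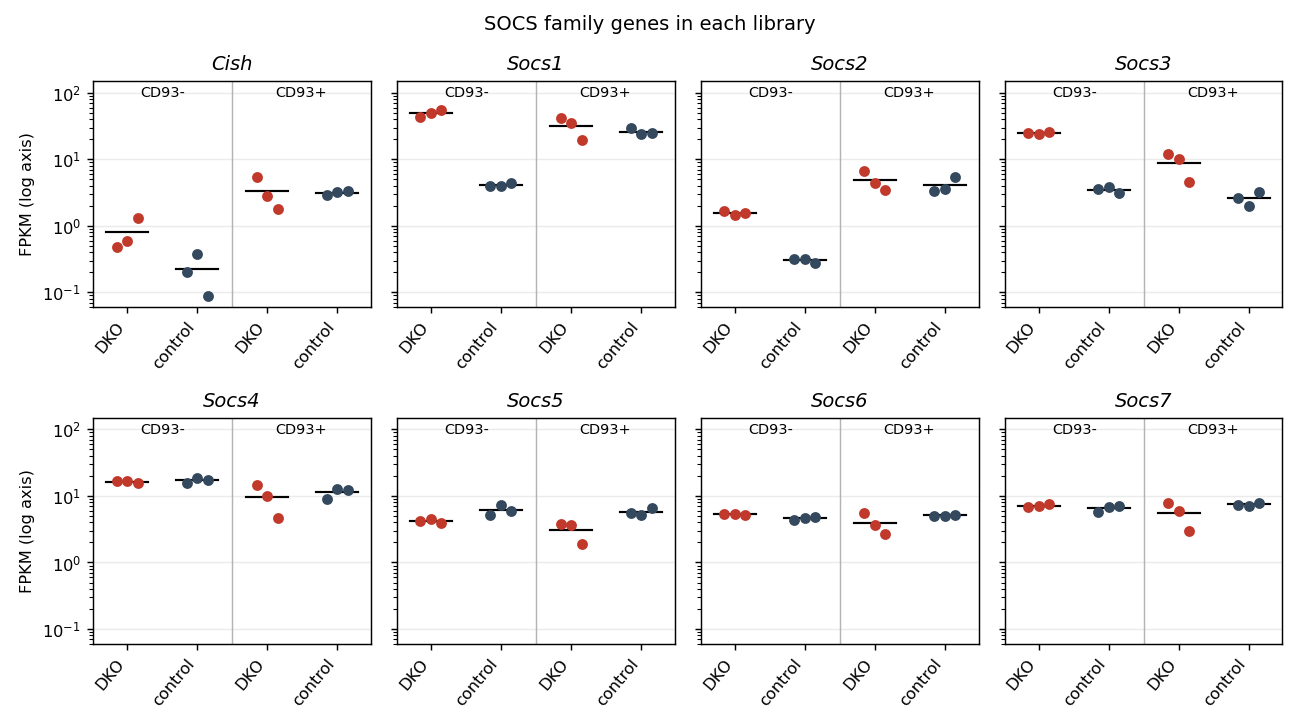
FPKM of each SOCS family gene on a log axis, with 1 point per library, horizontal bars at the mean of 3 libraries, DKO in red and control in dark blue. In CD93-negative cells Socs1 and Socs3 lay at 43.5 to 54.9 and 24.0 to 25.9 FPKM in DKO libraries, above 3.90 to 4.42 and 3.08 to 3.77 FPKM in controls, while Socs4 overlapped between groups.

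The plot of FPKM by library shows a second feature, replicate 3 as the lowest point of the CD93-positive DKO group in every panel. Shares within a library are free of the scaling between libraries, though not of other differences of a library. They were computed for each member as a percentage of the summed FPKM of the 8 genes. Socs1 made up 41.9%, 45.4% and 47.4% of the family sum in CD93-negative DKO libraries, against 9.96%, 8.55% and 10.3% in CD93-negative control libraries. Socs3 made up 22.0% to 24.1% in DKO and 7.19% to 9.24% in control libraries. Socs4 was the leading member of the control libraries, with 40.2% to 40.9%, and had 13.4% to 16.1% in DKO libraries. The sum of Cish, Socs1, Socs2 and Socs3 was 2.13 to 2.59 times that of Socs4 to Socs7 in DKO libraries, and 0.223 to 0.258 times in control libraries. The make-up of the family thus differed between the groups in every CD93-negative library, whatever the scaling between libraries. In CD93-positive cells the ratio of these sums was 2.11 to 2.37 in DKO and 1.08 to 1.41 in control libraries. These did not overlap either. There the share of Socs3 was higher in DKO libraries and those of Socs5, Socs6 and Socs7 were lower, all without overlap. The shares of Socs1, Socs2, Socs4 and Cish overlapped. Shares of the same sum are tied, so a larger share of some members lowers those of the others. In FPKM the CD93-positive groups of Socs6 and Socs7 overlapped, and neither gene passed under either scaling.

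**Figure D2:**
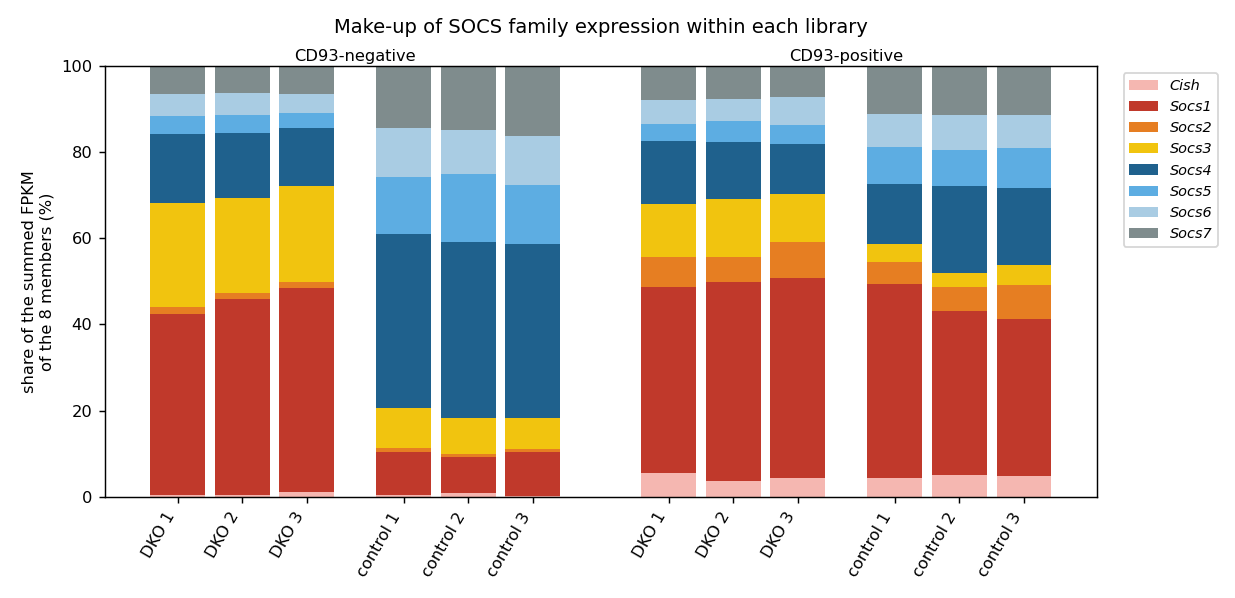
Share of each member, in percent, of the summed FPKM of the 8 SOCS family genes, with 1 bar per library and DKO left of control in each population. Socs1 took 41.9% to 47.4% of the sum in CD93-negative DKO libraries and 8.55% to 10.3% in CD93-negative controls, while in CD93-positive cells the shares of Socs1 overlapped, at 43.3% to 46.4% in DKO and 36.4% to 45.0% in control libraries. The shares of Socs3 in CD93-positive cells did not overlap, at 11.2% to 13.3% in DKO and 3.23% to 4.71% in control libraries.

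In CD93-positive cells Socs3 and Socs5 were the 2 members whose groups did not overlap in FPKM. Socs3 was 3.37-fold higher in the mean of DKO libraries, and Socs5 was at 0.541 of its control mean. Socs1, Socs2 and Cish, which were low in CD93-negative control cells, were already at 26.0, 4.08 and 3.16 FPKM in CD93-positive control cells, and their DKO and control FPKM overlapped.

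Socs3 had 12.0, 9.98 and 4.62 FPKM in CD93-positive DKO libraries, against 2.60, 2.02 and 3.26 FPKM in control libraries. Even the low DKO replicate 3 lay above all controls. The log2 change was 1.37 (SE 0.32), or 1.56 (SE 0.14) after rescaling. Socs3 was the member called with the authors' scaling, 1 of 8 that passed the filter, where 3.21% of 11250 genes were called, 1.67% higher and 1.54% lower. That call was lost without control replicate 1 (log2 change 1.37), without control replicate 2 (1.25) and with sex as a covariate (1.12), and it was lost with no filter on low values. Among libraries with the female pattern, Socs3 was at 4.62 to 12.0 FPKM in the 3 DKO libraries and at 3.26 FPKM in control replicate 3.

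Socs1 had 42.3, 34.7 and 19.2 FPKM in CD93-positive DKO libraries, against 29.2, 23.6 and 25.2 FPKM in control libraries. DKO replicates 1 and 2 lay above the controls and replicate 3 below them. The log2 change of 0.22 (SE 0.38) did not pass, and after rescaling it was 0.46 (SE 0.10) and passed. Socs2 had 6.78, 4.34 and 3.44 FPKM in DKO and 3.29, 3.52 and 5.44 FPKM in control libraries, and Cish had 5.33, 2.76 and 1.82 FPKM in DKO and 2.88, 3.23 and 3.38 FPKM in control libraries. In FPKM neither gene separated the groups, with log2 changes of 0.19 (SE 0.31) and -0.03 (SE 0.29), and neither passed after rescaling. Relative to Socs4 to Socs7 of the same library, Socs1, Socs2 and Cish each lay above the controls in DKO libraries without overlap, by the ratios given below. Such a ratio also rises where its denominator is lower, and Socs5, a part of it, was lower after rescaling. The summed level of Socs4 to Socs7 was 12.3 to 31.4 FPKM in DKO and 26.9 to 32.0 FPKM in control libraries. The part of the denominator was not tested, and no such ratio was computed for genes outside the family.

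Socs5 had 3.77, 3.71 and 1.89 FPKM in CD93-positive DKO libraries, against 5.57, 5.22 and 6.54 FPKM in control libraries. As in CD93-negative cells, the groups did not overlap. The change of -0.75 (SE 0.31) did not pass with the authors' scaling and passed after rescaling, at -0.56 (SE 0.09). Its share of the summed FPKM of Socs4 to Socs7 was 12.0% to 16.0% in DKO and 17.4% to 20.7% in control CD93-positive libraries, and 12.1% to 13.5% in DKO and 16.6% to 19.3% in control CD93-negative libraries, with no overlap in either population. Socs4, Socs6 and Socs7 ran from 4.74 to 14.4, 2.65 to 5.46 and 2.98 to 7.79 FPKM in DKO libraries and from 9.04 to 12.6, 5.04 to 5.19 and 7.15 to 7.96 FPKM in control libraries. Their ranges overlapped, DKO replicate 3 gave the lowest value of each, and none passed under either scaling. After rescaling, 2 members were called higher, Socs1 and Socs3, and 1 lower, Socs5, where 20.7% of all genes were called, 11.4% higher and 9.34% lower. Values that did not overlap were found in 1 member with higher and 1 with lower DKO values, against 21.9% of genes tested, 2.94% with higher and 19% with lower DKO values.

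**Figure D3:**
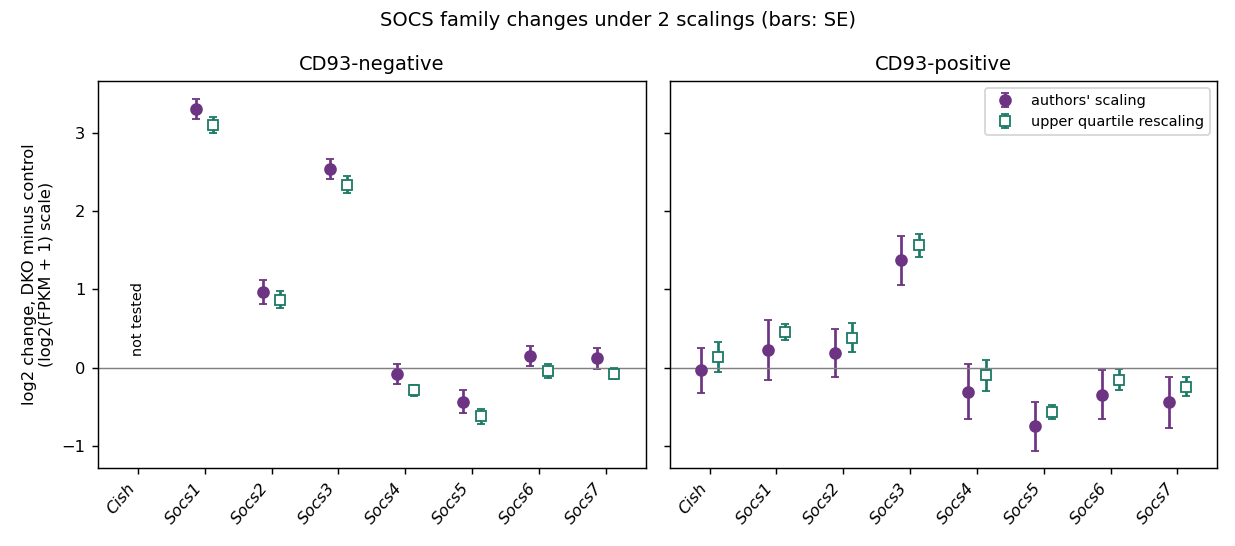
Log2 change of each member on the log2(FPKM + 1) scale, above 0 where DKO is higher, with the authors' scaling (filled circles) and after upper quartile rescaling (open squares), in CD93-negative (left) and CD93-positive cells (right). Bars are SE. Socs1 was at 3.30 in CD93-negative and 0.22 in CD93-positive cells, and Socs3 at 2.54 and 1.37, with the authors' scaling.

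Set side by side, the log2 change of Socs1 was 3.30 in CD93-negative and 0.22 in CD93-positive cells, and that of Socs3 was 2.54 and 1.37, as the plot of log2 changes shows. Whether these changes differ between the populations was not tested. The 2 tables were taken as scaled separately, so levels across them carry no test. Relative to Socs4 to Socs7 of the same library, Socs1 was at 1.31 to 1.70 in CD93-negative DKO, 0.104 to 0.126 in CD93-negative control, 1.35 to 1.56 in CD93-positive DKO and 0.787 to 1.09 in CD93-positive control libraries. Thus the ratios of the DKO groups overlapped, and the control groups were far apart. Within CD93-positive cells the DKO and control ratios of Socs1 did not overlap. The same ratio of Cish was 0.0142 to 0.0410 in DKO and 0.00252 to 0.0100 in control CD93-negative libraries, against 0.119 to 0.170 in DKO and 0.106 to 0.108 in control CD93-positive libraries. Socs2 followed the same order, with 0.0426 to 0.0507 in DKO and 0.00791 to 0.0102 in control CD93-negative libraries, and 0.187 to 0.281 in DKO and 0.117 to 0.170 in control CD93-positive libraries. Socs3 did not, since its ratio in the control groups overlapped, at 0.0880 to 0.116 in CD93-negative cells and at 0.0672 to 0.102 in CD93-positive cells, below 0.713 to 0.803 and 0.377 to 0.430 in the DKO groups.

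Red cell and neutrophil markers were also much higher in the CD93-positive libraries, and their part in these levels was not tested. Within CD93-positive controls, replicate 3 had a summed red cell level of 13077 FPKM, against 48673 and 57074 FPKM in the other 2 replicates. Its Socs1, Socs2 and Cish values were 25.2, 5.44 and 3.38 FPKM, between theirs for Socs1 and above theirs for Socs2 and Cish. Replicate 3 also differed from them by its female pattern, and its summed neutrophil level of 1470 FPKM lay between theirs. Red cell level and sex pattern cannot be told apart in these controls, so the part of red cells was not tested.

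The order of the members by level differed between groups. In CD93-negative DKO cells it ran Socs1, Socs3, Socs4, Socs7, Socs6, Socs5, Socs2 and Cish, and no neighbours in that order overlapped. In CD93-negative control cells Socs4 led at 15.8 to 18.9 FPKM, followed by Socs7 and Socs5, which overlapped, then by Socs6 and Socs1, which overlapped, by Socs3, and by Socs2 and Cish, which overlapped. In CD93-positive cells Socs1 led in both groups without overlap to Socs4, the next gene. Below that, every pair of neighbours overlapped in DKO libraries, and in control libraries Socs4, Socs7 and Socs5 followed without overlap while Socs6, Socs2, Cish and Socs3 each overlapped the next.

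Promoter sequences are shown for the 3 cytokine-inducible members with an entry, and for Socs4 as a member whose level was similar between groups in CD93-negative cells. They are from RefSeq on build GRCm38.p6, another build than the mm9 listed for these libraries. Each runs 5′ to 3′ on the strand of the gene, from 250 bases before the annotated start to the first 30 bases after it. Entries were matched by symbol for 4 of 8 members. The windows are chr16:10785507-10785786 (minus strand) for Socs1, chr11:117969337-117969616 (minus strand) for Socs3, chr9:107296409-107296688 (plus strand) for Cish and chr14:47276670-47276949 (plus strand) for Socs4. Capitals mark the letters TTCNNNGAA, the form bound by STAT dimers, and GAAA, any 2 bases and GAAA, or on the other strand TTTC, any 2 bases and TTTC, a form bound by interferon regulatory factors.
Socs1: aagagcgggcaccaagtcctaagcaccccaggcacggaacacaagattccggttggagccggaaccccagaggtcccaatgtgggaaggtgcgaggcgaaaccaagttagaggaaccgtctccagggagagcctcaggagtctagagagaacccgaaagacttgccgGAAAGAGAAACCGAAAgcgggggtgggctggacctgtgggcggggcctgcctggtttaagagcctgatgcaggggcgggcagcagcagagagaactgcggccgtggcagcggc
Socs3: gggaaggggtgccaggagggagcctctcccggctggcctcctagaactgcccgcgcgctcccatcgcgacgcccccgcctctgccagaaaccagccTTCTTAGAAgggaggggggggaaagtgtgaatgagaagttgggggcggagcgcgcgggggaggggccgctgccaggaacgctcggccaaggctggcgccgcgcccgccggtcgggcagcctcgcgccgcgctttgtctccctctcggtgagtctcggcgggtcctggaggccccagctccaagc
Cish: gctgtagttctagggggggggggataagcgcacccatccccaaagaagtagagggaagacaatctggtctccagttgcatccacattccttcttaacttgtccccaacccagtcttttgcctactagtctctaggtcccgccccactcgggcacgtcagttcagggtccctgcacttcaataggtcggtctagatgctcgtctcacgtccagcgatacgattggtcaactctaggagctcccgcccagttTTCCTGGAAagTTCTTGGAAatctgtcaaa
Socs4: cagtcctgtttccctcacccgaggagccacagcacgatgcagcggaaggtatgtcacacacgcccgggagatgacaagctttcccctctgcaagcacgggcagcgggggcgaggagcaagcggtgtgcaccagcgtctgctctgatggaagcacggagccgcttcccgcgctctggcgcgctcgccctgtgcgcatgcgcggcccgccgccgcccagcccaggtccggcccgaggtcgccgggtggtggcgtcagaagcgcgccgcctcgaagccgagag
The Socs1 window held 2 overlapping matches to the paired GAAA motif, whose joint run GAAAGAGAAACCGAAA begins 83 bases before the start. The Socs3 window held 1 match to TTCNNNGAA, TTCTTAGAA, which begins 154 bases before the start. The Cish window held 2 matches to that motif, TTCCTGGAA at the annotated start and TTCTTGGAA beginning 11 bases after it. The Socs4 window held no match to either. Of 32851 promoters of the same length, 7.83% held TTCNNNGAA, which reads the same on both strands, and 3.28% held the paired GAAA motif on either strand. A match describes letters in this window and is no evidence of binding.

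The genes whose values ran most closely with a called member were found among 9309 genes tested in both tables, by the mean of Pearson's r over the 6 libraries of each table. The points share the 2 groups and the scaling of each library, so these values are a description. For Socs3 they were Cadm1, an adhesion molecule, Gbp7 and Irgm2, both interferon-inducible GTPases, Manf, an endoplasmic reticulum stress factor, and Ass1, an enzyme of arginine synthesis, with a mean r of 0.991 to 0.995. For Socs1 they were Cdc6 and Prim1, which act in DNA replication, Pdk3, a mitochondrial kinase, Pim2, a kinase induced by cytokines, and the translation factor gene Eif2s2, with a mean r of 0.980 to 0.987. For Socs2 they were the interferon-stimulated genes Oas2 and Ifit2, the receptor kinase gene Kit, Nxn and Tram2, with a mean r of 0.944 to 0.970. In CD93-negative cells Socs2 and Kit passed the filter through DKO libraries alone, so nothing is read from the genes most like Socs2. Socs1 and Socs3 themselves had an r of 0.995 in CD93-negative and 0.711 in CD93-positive libraries.

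The JAK-STAT pathway around the family was followed in 117 other genes found in the tables, in 8 lists that share some genes. Some genes passed the filter through the libraries of 1 group alone, with every library of the other group under 1 FPKM. Such a gene had to differ, so it is left out of the counts below and its values are given with no test. Of the other 92 genes tested in CD93-negative cells 28 rose and 4 fell in DKO libraries, where 17.6% of all genes selected alike were higher and 2.60% lower. Of the other 92 genes tested in CD93-positive cells 1 rose and 1 fell, where 1.14% of all genes selected alike were higher and 1.35% lower, so the share there was near that of all genes. With the genes left out added, 30 of 94 were higher and 4 lower in CD93-negative cells, against 18.7% and 2.79% of all genes, and 6 of 98 were higher and 2 lower in CD93-positive cells, against 1.67% and 1.54%. After upper quartile rescaling these became 26 higher and 28 lower in CD93-negative cells, against 17.1% and 23.8% of all genes, and 20 higher and 14 lower in CD93-positive cells, against 11.4% and 9.34%. The balance of higher and lower genes thus depended on scaling. As deposited, the total of 34 calls in CD93-negative cells was 22 without DKO replicate 2 and 18 without DKO replicate 3. The total of 8 in CD93-positive cells rested on single libraries, with 2, 1 and 18 calls without DKO replicates 1, 2 and 3, 4 calls without any 1 of the controls and 3 with sex as a covariate. Adjusted p-values below are from limma over all genes of the population. The list counts below stand beside 17.6% of all genes higher and 2.60% lower in CD93-negative cells, and 17.1% and 23.8% after rescaling. For CD93-positive cells these shares were 1.14% and 1.35%, and 11.4% and 9.34% after rescaling.

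Among JAK kinases, Jak3, the partner of the common gamma chain, had 68.7, 69.0 and 68.9 FPKM in CD93-negative DKO libraries, against 29.4, 35.4 and 34.8 FPKM in control libraries (log2 change 1.04, SE 0.13, adjusted p = 1.06e-04). The groups were far apart, and Jak3 was the 1 gene of 4 that rose. After rescaling 1 JAK gene was higher and 3 were lower. Of 7 STAT genes 3 rose and 0 fell, with a median log2 change of 0.22, against 0.11 over all genes, and after rescaling 3 were higher and 2 lower. Stat2 averaged 44.8 ± 0.647 FPKM in DKO and 27.2 ± 3.79 FPKM in control libraries, and Stat3, the factor downstream of interleukin 6 and 10, averaged 59.2 ± 2.1 FPKM in DKO and 34.9 ± 5.43 FPKM in control libraries. In CD93-positive cells 0 of the 4 JAK and 0 of the 7 STAT genes passed with the authors' scaling, and 1 JAK gene and 2 STAT genes were higher after rescaling, with 1 JAK gene lower.

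Of 23 tested cytokine receptor chains 3 rose and 1 fell in CD93-negative cells (median log2 change 0.06). Il12rb1, a chain of the interleukin 12 and 23 receptors, had 8.62, 6.49 and 8.29 FPKM in DKO libraries, against 0.520, 1.28 and 1.36 FPKM in control libraries (log2 change 2.12, SE 0.19, adjusted p = 9.05e-06). Il15ra and Il6ra rose by 0.60 and 0.47 (log2), whereas Il9r fell to 10.7 ± 0.745 FPKM in DKO libraries, against 20.1 ± 2.77 FPKM in control libraries. After rescaling 3 receptor genes were higher and 8 lower. In CD93-positive cells 0 of 22 passed, and 1 was higher and 5 lower after rescaling. Of 19 ligands in the table, 4 passed the filter in CD93-negative cells. Ebi3, a subunit of interleukins 27 and 35, was the 1 of 4 tested that rose, with 14.8 ± 1.54 FPKM in DKO and 9.74 ± 1.15 FPKM in control CD93-negative libraries, and it did not pass after rescaling. In CD93-positive cells 1 of 5 ligands rose, Ifng. Il10, an anti-inflammatory cytokine, passed the filter through DKO libraries alone, with 1.89, 1.41 and 1.30 FPKM in DKO libraries, against 0.544, 0.0831 and 0.0540 FPKM in control libraries. Ifng, the ligand of the interferon gamma receptor, had 2.38, 3.76 and 0.915 FPKM in DKO and 0.448, 0.639 and 1.01 FPKM in control libraries, which overlapped (log2 change 0.90, SE 0.25, adjusted p = 0.0118). T cells and NK cells also make Ifng, and the summed level of 11 T cell markers was 51.4 to 170 FPKM in DKO and 77.0 to 102 FPKM in control CD93-positive libraries, while that of 9 NK cell markers was 28.2 to 84.3 FPKM in DKO and 19.9 to 40.2 FPKM in control libraries. Their part in the Ifng values was not tested.

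Of 9 tested partners of the SOCS box ligase, 4 rose and 0 fell in CD93-negative cells, with a median log2 change of 0.46. Tceb1 and Tceb2, which encode Elongin C and Elongin B, averaged 27.0 ± 2.35 and 134 ± 19.5 FPKM in DKO libraries, against 19.3 ± 1.95 and 93.8 ± 8.22 FPKM in control libraries. After rescaling 2 partners were higher, Tceb1 and the cullin gene Cul2, while Tceb2 and Nedd8, which encodes a ubiquitin-like activator of cullins, did not pass. Cul5, the gene of Cullin 5 itself, averaged 7.62 ± 0.242 FPKM in DKO and 7.26 ± 0.950 FPKM in control CD93-negative libraries. Its groups overlapped, and it did not pass under either scaling. Of 16 other negative regulators 3 rose and 1 fell. These were 18.8% and 6.25%, beside 17.6% and 2.60% of all genes selected alike, so the share that rose was near that of all genes. Usp18, which blocks the type I interferon receptor, had 10.8, 10.2 and 11.6 FPKM in CD93-negative DKO libraries, against 2.15, 4.17 and 3.85 FPKM in control libraries (log2 change 1.46, SE 0.18, adjusted p = 1.23e-04). The phosphatase genes Ptpn1 and Ptpn2 had log2 changes of 0.62 and 0.43 and rose, and the phosphatase gene Dusp3 fell by 0.45. After rescaling 3 of these regulators were higher and 8 lower, where 17.1% of all genes were higher and 23.8% lower. In CD93-positive cells 0 of 9 ligase partners and 0 of 16 regulators passed with the authors' scaling, and after rescaling 4 regulators were lower. The list of 16 also held Slc44a2, a choline transporter-like gene that is not an established regulator of JAK-STAT signalling. It did not pass with the authors' scaling and is counted among the genes lower after rescaling in both populations.

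Of 21 STAT target genes outside the family tested in CD93-negative cells 13 rose and 1 fell, beside 17.6% and 2.60% of all genes selected alike. With Prdm1, which passed the filter through DKO libraries alone, 13 were higher and 5 lower after rescaling. Irf1, an interferon-induced transcription factor, had 170.3, 164 and 189 FPKM in DKO libraries, against 45.9, 58.1 and 58.6 FPKM in control libraries (log2 change 1.68, SE 0.14, adjusted p = 5.40e-06). Psmb9, an immunoproteasome subunit, and Nlrc5, an activator of MHC class I genes, rose by 1.63 and 1.62 on the log2 scale. In CD93-positive cells 0 of 21 rose and 1 fell. The 4 others had passed the filter through DKO libraries alone, and with them 14 of 25 were higher and 4 lower after rescaling. Of these 4, the chemokine genes Cxcl9 and Cxcl10 averaged 2.17 ± 0.385 and 2.1 ± 0.669 FPKM in DKO libraries, against 0.423 ± 0.287 and 0.399 ± 0.226 FPKM in control libraries. Prdm1, a plasma cell transcription factor, had 5.65, 3.98 and 2.54 FPKM in DKO libraries, against 0.779, 0.741 and 0.796 FPKM in control libraries. In CD93-negative cells it had 3.08 to 3.37 FPKM in DKO and 0.481 to 0.874 FPKM in control libraries. The 9 plasma cell markers, Prdm1 among them, summed to 910 to 1576 FPKM in DKO and 199.6 to 266 FPKM in control CD93-positive libraries, and their part in the Prdm1 values was not tested. Fcer2a, the gene of CD23 and a target of STAT6, was the gene that fell in both populations, to 167 ± 0.984 FPKM in DKO, against 341 ± 35.9 FPKM in control CD93-negative libraries, and to 14.1 ± 4.86 FPKM in DKO, against 37.8 ± 2.96 FPKM in control CD93-positive libraries.

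Among 16 genes of proteins that SOCS members are known to bind or turn over, 1 rose and 1 fell in CD93-negative cells. This was 6.25% each, beside 17.6% and 2.60% of all genes selected alike. The growth factor receptor gene Igf1r rose by 0.50 on the log2 scale. Kit, a receptor kinase bound by SOCS6, passed the filter through DKO libraries alone, with 2.64, 2.37 and 2.75 FPKM in DKO libraries, against 0.319, 0.629 and 0.661 FPKM in control libraries. With Kit, 2 of these genes were higher and 6 lower after rescaling. In CD93-positive cells 0 of 16 passed. Irs1, an adaptor of the insulin receptor, passed the filter through control libraries alone, with 0.499 to 0.878 FPKM in DKO and 1.81 to 2.35 FPKM in control libraries. With Irs1, 2 of these genes were lower after rescaling.

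**Figure D4:**
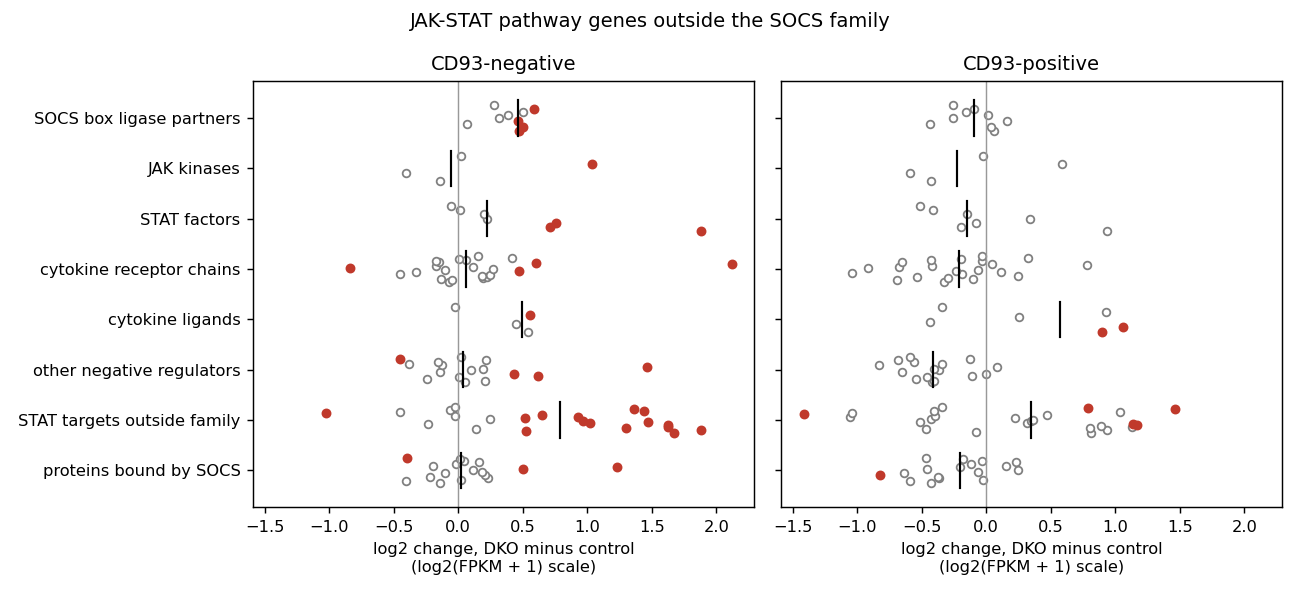
Log2 change on the log2(FPKM + 1) scale, above 0 where DKO is higher, of every tested gene of 8 lists of JAK-STAT pathway genes outside the SOCS family, with 1 point per gene, filled red where the adjusted p of limma was under 0.05 and open where not, and a black bar at the median of the list, genes that passed the filter through 1 group alone included. Jak3 at 1.04 and Il12rb1 at 2.12 stood apart from the rest of their lists in CD93-negative cells.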

How the data were processed

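Total RNA was turned into sequencing libraries with a strand-specific SureSelect kit, per the labels' protocols. Cufflinks 2.1.1, TopHat2 2.0.8, Bowtie2 2.1.0 and genome build mm9 are named, without roles, in the submitters' processing notes. The authors deposited FPKM values, 1 column per library. The annotation, the treatment of fragments that map to several genes and any filter are not given in the sources used here. Of 24 labelled samples 12 were used. The remaining 12, CD93-negative cells split by CD23 and CD21, are not analysed here. The CD93-positive table repeated its 6 columns in 6 further columns, cell for cell, which were not used. Samples were grouped by title.

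The values log2(FPKM + 1) of genes that reached 1 FPKM in 3 or more libraries of a population went into a linear model (lmFit and eBayes with trend = TRUE of limma 3.58.1, under R 4.3.3), two-sided and with no covariate. Benjamini-Hochberg adjustment ran over all genes tested, with a threshold of 0.05. The CD93-positive fit gave genes of like expression nearly the same spread, so its p-values depend little on a gene's own replicates. FPKM holds no counts, so no count model, interval or detection floor is given. The fit was tested on simulated data with known changes. Genes were named by rule: the 8 members, Tet2, Tet3 and Cd93, up to 4 called genes with the largest change of each pathway list, and the 5 genes most like each called member, leaving out predicted, clone, small RNA and receptor segment names. Some genes that this rule names are not reported here. The members and lists were chosen with earlier results of these data known. Alternatives were pseudocounts of 0.1 and 5 FPKM, no filter and a filter of 5 FPKM, upper quartile rescaling, quantile normalization, each library left out, a fit with no trend, quality weights per sample, sex as a covariate and a block for the replicate number. Upper quartile rescaling without DKO replicate 3 was added after seeing the data.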

Additional observations from a re-analysis of the deposited data

How the results depend on the processing

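Socs1 and Socs3 in CD93-negative cells kept their direction and their call under every alternative run, with log2 changes of 2.57 to 3.56 and 1.82 to 2.81. Socs2, which passed the filter through its DKO libraries alone, ran from 0.30 to 2.03, and nothing is read from its calls. With upper quartile rescaling 4478 genes were called in CD93-negative cells, against 2351, and 2331 in CD93-positive cells, against 361. Quantile normalization gave 4198 and 2230. Members called were then 5 in CD93-negative and 3 in CD93-positive cells under both, against 3 and 1, and pathway genes outside the family 54 and 34 with rescaling and 55 and 35 with quantile normalization, against 34 and 8. The pathway counts include 2 and 6 calls of genes that passed the filter through 1 group alone. Without 1 library, calls in CD93-negative cells numbered 1368 to 3247 over all genes, 2 to 4 members and 18 to 44 pathway genes. In CD93-positive cells they numbered 139 to 623, 0 to 1 and 1 to 18. The libraries that moved the gene count by over 1.5 times were DKO replicates 2 (1539) and 3 (1368) in CD93-negative cells, and DKO replicates 2 (202) and 3 (623) and control replicates 1 (139) and 2 (157) in CD93-positive cells. The count of 2 members without a CD93-negative DKO library reflects Socs2, which then missed the filter. With rescaling and without DKO replicate 3 together, 1547 genes, 3 members and 25 pathway genes were called in CD93-positive cells. For CD93-positive cells, no filter left 16 genes, 0 members and 0 pathway genes, a filter of 5 FPKM left 168, 0 and 1, and no trend gave 188 genes and 2 pathway genes. Sample quality weights, whose estimation gave convergence warnings in these data, gave 783 and 21, and sex as a covariate gave 127 genes, 0 members and 3 pathway genes. The cause of these shifts was not tested.

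The labels do not say whether replicate numbers pair the samples, and the main fit did not pair them. Same-numbered libraries had correlations of deviations of 0.0237, -0.113 and -0.0858 in CD93-negative and 0.166, -0.113 and -0.139 in CD93-positive cells. Not every library correlated best with its own number. With deviations taken from means of 3 libraries that also carry the scaling, these correlations cannot exclude a pairing. With the replicate number as a block, 2874 genes and 4 members were called in CD93-negative cells, and 237 genes, 1 member and 5 pathway genes in CD93-positive cells.

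Changes that took the opposite sign belonged to members that did not pass with the authors' scaling. In CD93-negative cells they were Socs6 (-0.038 with rescaling, -0.0052 also without DKO replicate 3) and Socs7 (-0.075 with rescaling, -0.0070 with quantile normalization, -0.10 with rescaling and without DKO replicate 3). In CD93-positive cells Socs1 ran from -0.0055 to 0.55 without 1 library, Socs2 from -0.038 to 0.37 and was at -0.18 with sex as a covariate, and Socs4 ran from -0.62 to 0.089 without 1 library, at 0.48 with quality weights and 0.033 with rescaling and without DKO replicate 3. Socs6 and Socs7 were at 0.042 and 0.024 with quality weights. Cish ran from -0.35 to 0.23 without 1 library, at 0.0030 with a pseudocount of 5, 0.14 with rescaling, 0.094 with quantile normalization, 0.62 with quality weights and 0.18 with rescaling and without DKO replicate 3. Without 1 library the mean share of Socs1 in the family sum ran from 43.6% to 46.4% in DKO and 9.25% to 10.1% in control CD93-negative cells, and from 44.8% to 46.3% in DKO and 37.1% to 41.4% in control CD93-positive cells.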
